A study of Homo sapiens with 12 samples.

Results

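The genes described here are 39 cytokines, chemokines, NF-κB subunits and NF-κB target genes, out of 60671 genes in the count table. The members were listed by symbol, and each symbol matched a single Ensembl identifier. Poly(A) RNA was sequenced from BJ-5ta cells, a line of human skin fibroblasts immortalized with telomerase, as 12 libraries in 4 groups of 3. Wild-type cells at 10% serum gave libraries 1 to 3, ΔLEO1 cells at 10% serum libraries 4 to 6, wild-type cells after 10 days at 0.1% serum libraries 7 to 9, and ΔLEO1 cells after 10 days at 0.1% serum libraries 10 to 12. The ΔLEO1 cells carried a CRISPR-Cas9 lesion in the first exons of LEO1, a subunit of the PAF1 elongation complex, and all came from 1 clone (clone 13), so the spread between their libraries does not cover differences between clones. The labels do not say whether libraries of a group came from separate cultures, so the spread between these libraries may be technical. The p-values rest on that spread as the fit estimates it, shared over the 4 groups and drawn towards that of other genes. They do not follow each gene's own spread alone.

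NF-κB is a family of dimeric transcription factors held in the cytoplasm by inhibitory proteins such as the product of NFKBIA. Signals from interleukin-1, tumour necrosis factor or microbial products release the dimers, which then switch on chemokines, cytokines, adhesion molecules and their own inhibitors. Fibroblasts are a known source of the neutrophil-attracting CXC chemokines, of interleukin-6 and of CXCL12. Chemokines with the ELR motif (CXCL1, CXCL2, CXCL3, CXCL5, CXCL6 and CXCL8) act on neutrophils through CXCR1 and CXCR2, whereas CXCL12, CXCL14 and CXCL16 lack this motif.

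The 6 ELR chemokine genes lie together on chromosome 4 of GRCh38, from CXCL8 (chr4:73740506-73743716, plus strand) to CXCL2 (chr4:74097035-74099293, minus strand). Each of their promoters held the 9 bases GGAATTTCC, the core of a κB site, within the 250 bases before the start of the gene. The windows below show that core in capitals, 5′ to 3′ on the strand of the gene, from RefSeq sequence of GRCh38.p14. They are shown because all 6 ELR chemokines, NFKBIA and IL6 stood higher in a single library, described next. NFKBIA holds the core on the other strand, so that its capitals read as the reverse complement, and IL6 holds a related 10-base match to the NF-κB consensus.
CXCL1: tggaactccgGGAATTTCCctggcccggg
CXCL2: tggagctccgGGAATTTCCctggcccggg
CXCL3: tggagctccgGGAATTTCCctggcccggc
CXCL5: atgagttcagGGAATTTCCccagcatccc
CXCL6: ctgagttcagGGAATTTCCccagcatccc
CXCL8: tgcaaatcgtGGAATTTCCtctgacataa
NFKBIA: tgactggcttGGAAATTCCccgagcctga
IL6: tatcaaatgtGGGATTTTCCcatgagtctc

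The windows lie at chr4:73869305-73869333 on the plus strand (CXCL1), chr4:74099254-74099282 on the minus strand (CXCL2), chr4:74038749-74038777 on the minus strand (CXCL3), chr4:73998749-73998777 on the minus strand (CXCL5), chr4:73836579-73836607 on the plus strand (CXCL6), chr4:73740468-73740496 on the plus strand (CXCL8), chr14:35404812-35404840 on the minus strand (NFKBIA) and chr7:22727117-22727146 on the plus strand (IL6). Over the 29 bases, CXCL1 and CXCL2 shared 28, CXCL1 and CXCL3 27, and CXCL5 and CXCL6 28, while CXCL8 shared 14 to 17 with the other ELR chemokines. The core started 77 to 91 bases before the start of the 6 ELR chemokine genes. Of the 29 members with a promoter in the table, 11 (37.9%) held GGAATTTCC on either strand, against 137 of 27305 gene symbols with a promoter (0.502%). The NF-κB consensus, which overlaps the core, was found in 17 of the 29 (58.6%), against 11.8% of all symbols. The core was written down after these sequences had been seen, and most members are on the list because they are known NF-κB targets, so the shares describe the members and test nothing. The promoters of CXCL12, CXCL14, TNFAIP6, IL1B and IL11 held neither set of letters in this window. The plot of match positions shows where the matches lie.

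**Figure D1:**
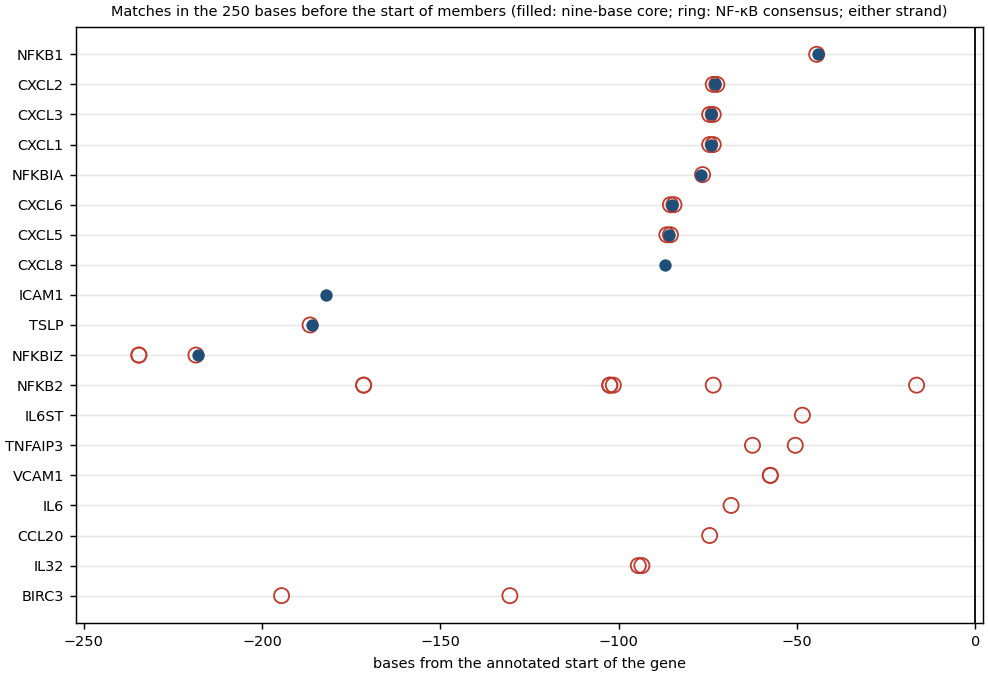
Positions of matches in the 250 bases before the annotated start of each member with a match (x axis, bases from the start; filled points, GGAATTTCC; rings, NF-κB consensus; either strand). The core of the 6 ELR chemokines lies 77 to 91 bases before the start at its first base, that of NFKB1 is closest to the start, and those of ICAM1, TSLP and NFKBIZ are furthest.

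Gene counts per library ran from 26240632 to 45315560 and ERCC counts, from synthetic transcripts added to each sample, from 244023 to 1090393. Fold changes below are log2 values on the ERCC scale, that is of gene counts relative to ERCC counts, with their standard error, and a difference was called at a Benjamini-Hochberg adjusted p under 0.05 in edgeR's quasi-likelihood test over 13236 genes. Levels by library are given as CPM, gene counts scaled to a library total of 1000000, in the order of the library numbers. On the ERCC scale levels as a whole were lower at 0.1% serum, and the median log2 fold change of all genes tested was -0.97 for 0.1% over 10% serum in wild-type cells and -1.05 in ΔLEO1 cells, and 0.35 and 0.27 for ΔLEO1 over wild-type cells at 10% and 0.1% serum. TMM scaling on the genes, given beside it, sets these medians between 0.00 and 0.02. In bulk RNA, fewer cells of a type and less RNA per cell cannot be told apart. LEO1 stood at 23.3, 23.9 and 23.3 CPM in wild-type cells at 10% serum and at 29.7, 30.4 and 20.4 at 0.1% serum, against 1.37, 0.794 and 1.24 at 10% and 0.661, 1.44 and 1.39 at 0.1% serum in ΔLEO1 cells, as the labels say. Collagen and other fibroblast markers were high in every library (51900 to 75571 CPM summed over 8 genes).

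Library 3 stood apart from the other wild-type libraries at 10% serum in these genes, and the calls of tested members against that group are therefore given with and without it. Of the 26 members that passed the expression filter, 17 were more than 2-fold higher in library 3 than in the mean of libraries 1 and 2 (CPM), against 1.12% of all genes tested, and 2 were more than 2-fold lower, against 3.61%. CXCL1, a neutrophil chemokine, had 17, 33 and 1724 counts in the 3 libraries. CXCL8, which encodes interleukin-8, had 177, 194 and 9244 counts. IL6, a cytokine of the acute phase response, had 97, 149 and 4517 counts. In CPM these genes were 67.2-fold, 48.1-fold and 35.6-fold higher in library 3 than in the mean of the other libraries of the group. CXCL3 was 42.6-fold higher, CXCL6 20.7-fold, CXCL2 17.3-fold and CXCL5 13.3-fold, the last from 2, 1 and 21 counts. All 6 ELR chemokines were thus far above the other libraries, although 5 of them were too low in most libraries to be tested. CSF3, the granulocyte colony-stimulating factor, had 6, 7 and 194 counts there and no count in any other group. IL1B was 16.1-fold higher in library 3, CCL2 10.9-fold, LIF 8.34-fold, TNFAIP3 6.49-fold, ICAM1 5.65-fold, NFKBIZ 5.61-fold and NFKBIA 3.94-fold. The lower members were CXCL12, at 98.8, 99.9 and 41.5 CPM, and CXCL14, at 0.384, 0.689 and 0.204 CPM. CXCL16, IL6ST, TNFAIP6 and IL1R1 lay between 0.84 and 1.01 times the mean of libraries 1 and 2.

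In the other groups the highest-numbered library differed in the opposite direction. In library 9 (wild type, 0.1% serum) 10 of the 26 members were more than 2-fold lower than in the mean of libraries 7 and 8, against 1.56% of all genes, and in library 12 (ΔLEO1, 0.1% serum) 9 were lower than in libraries 10 and 11, against 1.72%. In library 6 (ΔLEO1, 10% serum) 3 were lower, against 1.96%, and in libraries 9, 12 and 6 none of the 26 was more than 2-fold higher, against 2.15%, 3.11% and 1.05% of all genes. CXCL8 was at 2.08, 2.63 and 0.597 CPM in libraries 7 to 9 and at 3.25, 3.47 and 0.198 in libraries 10 to 12, so that libraries 9 and 12 were the lowest of their groups. CCL2, a monocyte chemokine, was at 54.2, 71.3 and 18.7 CPM in libraries 7 to 9 and at 45.5, 47.0 and 14.4 in libraries 10 to 12. IL32, a cytokine first known from lymphocytes, was at 6.03, 7.62 and 3.28 and at 8.42, 9.59 and 1.36 CPM. For both genes, too, libraries 9 and 12 were the lowest. Median ERCC-scaled levels over all tested genes also differed by library, at 1408 in library 3 against 2666 and 2215 in libraries 1 and 2, and at 2035 in library 12 against 1062 and 629 in libraries 10 and 11. The part of sample quality or culture in these differences was not tested.

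**Figure D2:**
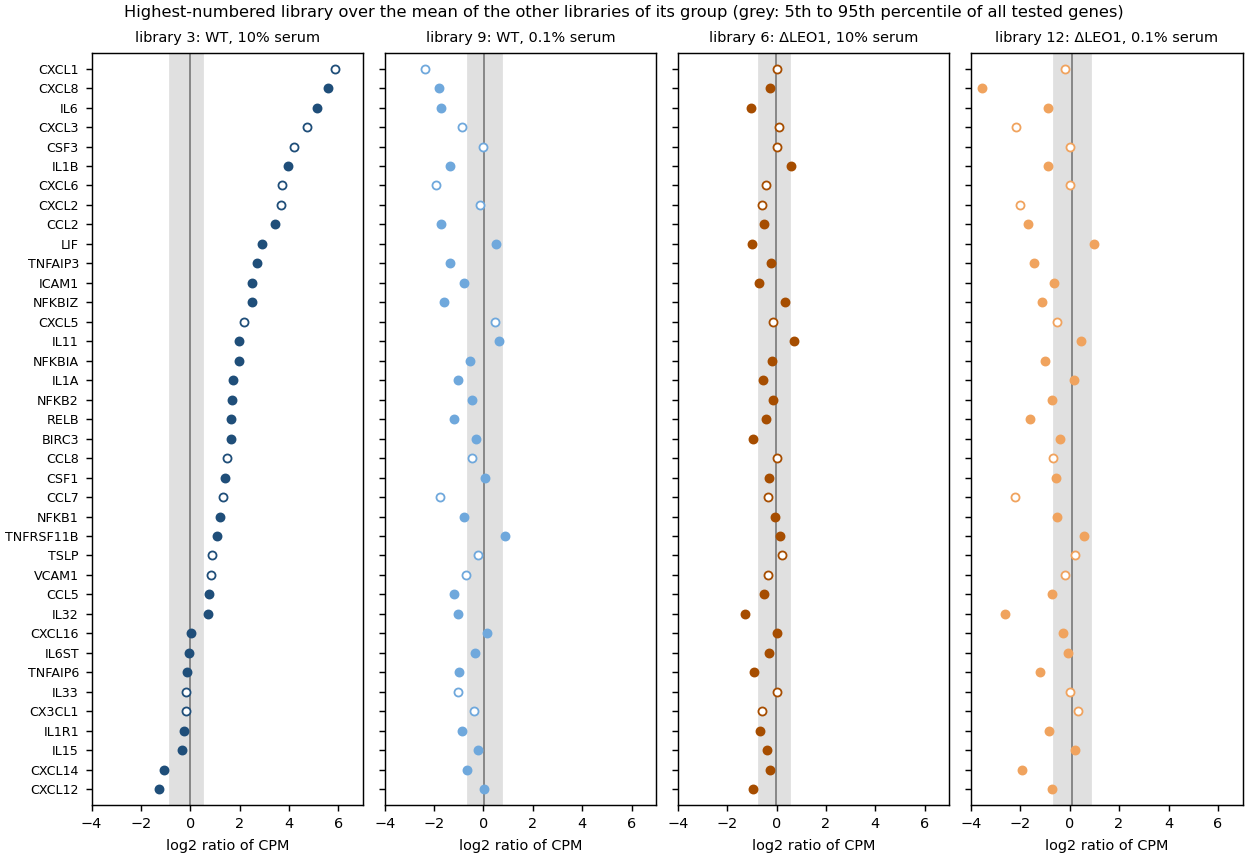
Log2 ratio of CPM (with 0.1 added) in the highest-numbered library of each group over the mean of the other libraries of the group, for 38 members ordered by library 3 (filled, tested; open, below the expression filter; grey band, 5th to 95th percentile of all tested genes; grey line, their median; CCL20, with no count, is left out). Library 3 reaches 5.87 for CXCL1 and 5.56 for CXCL8, whereas libraries 9, 6 and 12 lie mostly to the left of the median.

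The first question is how these genes differ between wild-type cells at 0.1% and 10% serum. Of the 26 members tested, 9 fell at 0.1% serum, against a background of 27.0% of all genes, and 2 rose, against 0.831%. CXCL8, IL6, IL1B, ICAM1, TNFRSF11B, IL32, BIRC3, TNFAIP3 and NFKB2 were lower, and CXCL12 and TNFAIP6 were higher. The members' median was -0.86, beside -0.97 for all genes. With TMM on the genes 5 were lower, against 16.1%, and 5 were higher, against 15.5%. Without library 3 the same test found 8 members lower and 0 higher, against 46.4% and 0.599% of all genes. CXCL12 and TNFAIP6, the 2 members then positive at an unadjusted p under 0.05, missed the threshold at adjusted p = 0.0761 and 0.0723. Without libraries 3, 6, 9 and 12 the counts were 9 lower, against 63.4%, and 3 higher, against 0.999%.

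In ΔLEO1 cells the same serum comparison called 11 of 26 members lower, against 36.4% of all genes, and 3 higher, against 0.793%. The lower members were the 9 that fell in wild-type cells with RELB and CCL5 besides, and the higher ones were CXCL12, CXCL14 and LIF. The median of the members was -1.02, beside -1.05 for all genes. TMM on the genes moved this split to 1 lower (CCL5), against 12.1%, and 8 higher, against 15.5%. Without libraries 3, 6, 9 and 12 the counts were 18 lower, against 92.0%, and 1 higher, against 0.658%.

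Between genotypes at 10% serum, 6 of 26 members were lower in ΔLEO1 cells, against 4.2% of all genes, and 2 were higher, against 3.81%. CXCL8, IL6, IL1B, ICAM1, CXCL12 and CXCL16 were lower, and CCL5 and TNFAIP6 were higher. The members' median was -0.54 where that of all genes was 0.35. Without library 3, 3 were lower (ICAM1, CXCL12 and CXCL16), against 4.64%, and 1 was higher (CCL5), against 2.45%. With TMM on the genes 9 were lower, against 21.4%, and 2 were higher, against 17.9%, and without libraries 3, 6, 9 and 12, 4 were lower, against 5.86%, and 3 were higher, against 4.9%. In CPM 11 of the 26 members were lower in every ΔLEO1 library than in any wild-type library at 10% serum, against 29.6% of all genes, and 8 at 0.1% serum, against 21.8%. On the ERCC scale this held for 5 at 10% serum, against 6.94%, and 4 at 0.1% serum, against 4.83%. At 0.1% serum 3 members were lower in ΔLEO1 cells (CXCL12, CXCL16 and ICAM1), against 3.41% of all genes, and 3 were higher (CCL5, CXCL14 and IL11), against 3.49%, with a median of -0.48 beside 0.27. With TMM on the genes 5 were lower, against 17.3%, and 2 were higher, against 15.1%, and without libraries 3, 6, 9 and 12, 9 were lower, against 11.8%, and 2 were higher, against 2.26%. The comparisons of wild-type serum levels and of genotypes at 10% serum share libraries 1 to 3. CCL5 and CXCL14 passed the expression filter only through ΔLEO1 libraries, so their calls as higher in ΔLEO1 cells are not independent of the filter.

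**Figure D3:**
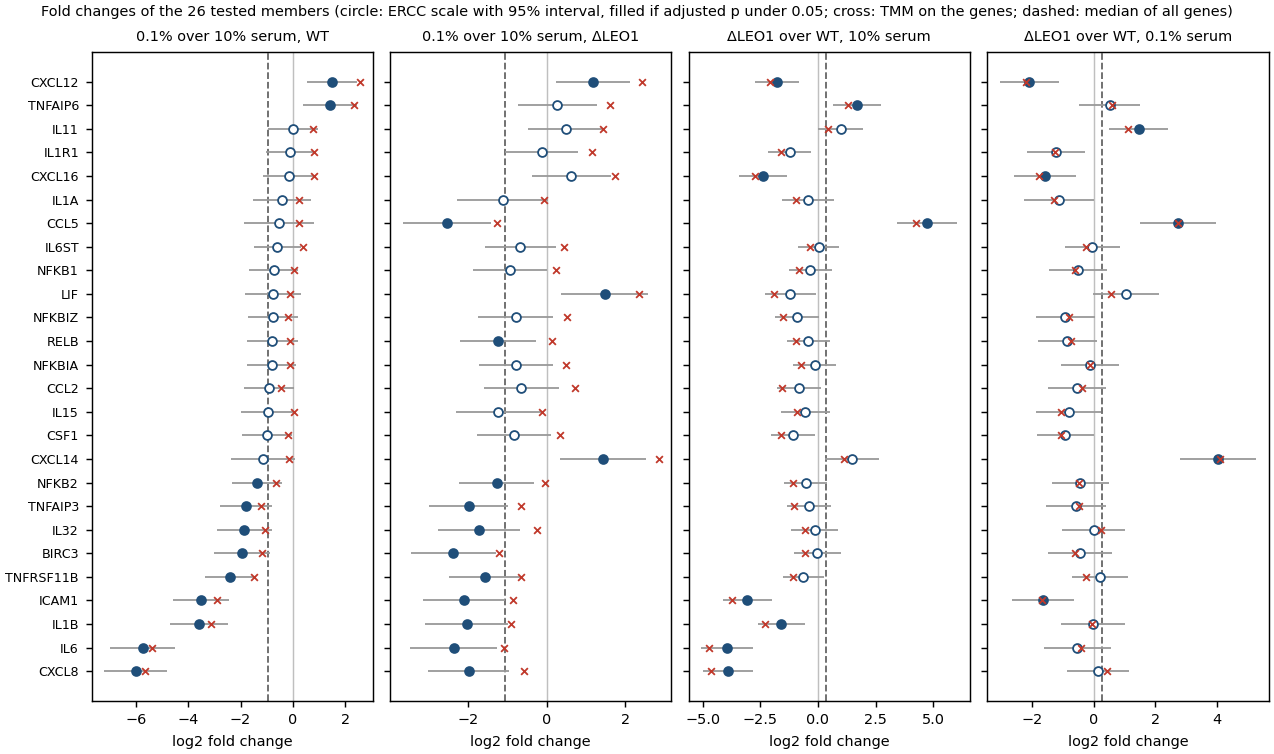
Log2 fold changes of the 26 tested members in 4 comparisons (circles, ERCC scale with 95% interval, filled where the adjusted p was under 0.05; crosses, TMM on the genes; dashed line, median of all genes). CXCL8 and IL6 lie furthest to the left in the wild-type serum comparison at -6.00 and -5.74, and CCL5 furthest to the right between genotypes at 10% serum at 4.74.

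Among the ELR chemokines only CXCL8 passed the filter. CXCL8 was at 4.85, 4.95 and 236 CPM in wild-type cells at 10% serum and at 1.34, 5.65 and 2.90 in ΔLEO1 cells, so that libraries 1 and 2 lay within the range of the ΔLEO1 libraries and only library 3 lay above it. Its log2 fold change for 0.1% over 10% serum was -6.00 ± 0.61 (adjusted p = 6.65e-19) in wild-type cells and -2.63 (adjusted p = 2.05e-04) without library 3. The standard error of the wild-type value was larger in other fits, at -5.65 ± 1.54 (adjusted p = 0.0163) with TMM on the genes. DESeq2 with ERCC size factors gave -5.98 ± 1.28 and no p-value, adjusted or not. In ΔLEO1 cells the change was -1.98 ± 0.52 (adjusted p = 0.00345) on the ERCC scale. There the groups overlap in CPM, TMM on the genes gave -0.57 (adjusted p = 0.79) and the call was lost without library 5. For ΔLEO1 over wild type at 10% serum the value was -3.89 ± 0.55 (adjusted p = 1.60e-10), and without library 3 it was -0.52 (adjusted p = 0.996). At 0.1% serum the difference was 0.12 ± 0.51 (adjusted p = 0.947), with a 95% interval of -0.88 to 1.13.

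CXCL1 differed between the genotypes in the other libraries as well. It had 17, 33 and 1724 counts in wild-type cells at 10% serum and 27, 41 and 5 at 0.1% serum, against 0, 0 and 0 at 10% and 1, 0 and 0 at 0.1% serum in ΔLEO1 cells. Every wild-type library thus lay above every ΔLEO1 library. Against a floor of 3 counts in each library, CXCL1 was at least 118-fold lower in ΔLEO1 cells at 10% serum on the ERCC scale, or at least 7.38-fold without libraries 3 and 6, and at least 9.15-fold lower at 0.1% serum. CXCL6 had 2, 10 and 126 counts in wild-type cells at 10% serum and 12, 17 and 2 at 0.1% serum, against 0, 3 and 0 at 10% and 0, 0 and 0 at 0.1% serum in ΔLEO1 cells, so the genotypes overlapped at 10% but not at 0.1% serum. CXCL2 and CXCL3, at 14 counts or fewer in every library but library 3, showed no such separation, with 9, 11 and 0 counts of CXCL2 and 12, 12 and 0 of CXCL3 in ΔLEO1 cells at 0.1% serum. Of 58-base stretches of the transcripts, 10.2% for CXCL2, 5.37% for CXCL3 and 2.74% for CXCL1 also occur in transcripts of other genes, so reads of these chemokines could be split between genes or lost. With no expression filter CXCL1, CXCL2 and CXCL3 were lower at 0.1% than at 10% serum in wild-type cells at -4.60 (adjusted p = 5.75e-11), -3.04 (adjusted p = 1.26e-04) and -3.61 (adjusted p = 2.57e-06), and no such fit was made without library 3. Without libraries 3 and 9 the mean of CXCL1 in wild-type cells was 73.6 ERCC-scaled counts at 10% and 65.9 at 0.1% serum. CXCL2 had 9, 11 and 179 counts and CXCL3 7, 5 and 267 in libraries 1 to 3, against 14, 7 and 10 and 14, 8 and 5 in libraries 7 to 9, so only library 3 lay above the range at 0.1% serum.

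IL6 and IL1B, like CXCL8, were highest in library 3. IL6 was at 2.66, 3.80 and 115 CPM in wild-type cells at 10% serum, 1.13, 1.68 and 0.358 at 0.1% serum, and 1.21, 2.52 and 0.855 at 10% and 0.719, 1.11 and 0.453 at 0.1% serum in ΔLEO1 cells. Its log2 fold change with low serum was -5.74 ± 0.63 (adjusted p = 1.66e-16) in wild-type cells, -2.76 (adjusted p = 1.39e-04) without library 3, and -2.36 ± 0.56 (adjusted p = 0.00111) in ΔLEO1 cells. In ΔLEO1 cells the serum groups overlapped in CPM, and TMM on the genes gave -1.07 (adjusted p = 0.596). In wild-type cells TMM on the genes gave -5.39 ± 1.34 (adjusted p = 0.0108), a larger standard error than on the ERCC scale. Library 3 was the highest of the 12 libraries by far, but libraries 1 and 2 also lay above all libraries at 0.1% serum. Between genotypes at 10% serum IL6 was -3.93 ± 0.58 (adjusted p = 6.77e-10), and -0.94 (adjusted p = 0.642) without library 3. Of the exon bases of IL6, 20.7% are shared with genes on the opposite strand, and the strand setting of the counting is not given in the sources used here.

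IL1B, the secreted form of interleukin-1 that activates NF-κB, was at 3.02, 4.77 and 62.7 CPM in wild-type cells at 10% serum and at 3.09, 5.16 and 6.24 in ΔLEO1 cells. Only library 3 lay above the range of the ΔLEO1 libraries. The genotype difference of -1.58 ± 0.53 (adjusted p = 0.0349) became 0.40 (adjusted p = 0.996) without library 3 and missed the threshold with TMM on the genes at -2.29 (adjusted p = 0.0695). With 1 library left out at a time it was called in 6 of 12 fits. With low serum IL1B changed by -3.58 ± 0.57 (adjusted p = 4.32e-08) in wild-type cells, by -1.60 (adjusted p = 0.0216) without library 3, and by -2.03 ± 0.54 (adjusted p = 0.00403) in ΔLEO1 cells, where TMM on the genes gave -0.92 (adjusted p = 0.502). On the CPM scale the serum groups overlapped in both genotypes, at 3.45, 3.81 and 1.34 CPM in wild-type and 4.08, 2.21 and 1.64 in ΔLEO1 cells at 0.1% serum. IL1A, the form that stays bound to cells, passed no threshold in the 12-library fit and reached its highest level in library 3, at 0.576, 0.766 and 2.47 CPM in libraries 1 to 3. Without libraries 3, 6, 9 and 12 IL1A was called lower with low serum in ΔLEO1 cells at -1.97 (adjusted p = 1.28e-04) and lower in ΔLEO1 than wild-type cells at 0.1% serum at -2.07 (adjusted p = 2.75e-04).

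The remaining cytokines differed less. IL32 was at 8.44, 9.78 and 14.8 CPM in wild-type cells at 10% serum and 6.16, 12.5 and 3.76 in ΔLEO1 cells, and its log2 fold change with low serum was -1.86 ± 0.53 (adjusted p = 0.0062) in wild-type and -1.72 ± 0.53 (adjusted p = 0.0141) in ΔLEO1 cells on the ERCC scale. Without library 3 the wild-type value was -1.87 (adjusted p = 0.00731). The wild-type call was lost without library 7 or 9 and the ΔLEO1 call without library 4 or 5, and with TMM on the genes neither value passed, at -1.06 (adjusted p = 0.207) and -0.25 (adjusted p = 0.789). LIF, a member of the interleukin-6 family, was at 0.619, 1.04 and 0.36 CPM in ΔLEO1 cells at 10% serum and 2.82, 2.61 and 5.41 at 0.1% serum, with a log2 fold change of 1.47 ± 0.57 (adjusted p = 0.0369). That call was lost without libraries 3, 6, 9 and 12, at 0.02 (adjusted p = 0.958), and was made in 5 of 12 fits that left out 1 library, at 0.41 to 1.90. IL11, of the same family, was at 7.07, 7.84 and 29.8 CPM in wild-type and 16.1, 17.7 and 27.2 in ΔLEO1 cells at 10% serum, and at 19.6, 26.1 and 35.2 in wild-type and 42.2, 59.8 and 70.9 in ΔLEO1 cells at 0.1% serum. At 0.1% serum the ΔLEO1 libraries all lay above the wild-type ones, with a difference of 1.46 ± 0.50 (adjusted p = 0.0478), which was 1.10 (adjusted p = 0.0973) with TMM on the genes and 0.69 (adjusted p = 0.272) without libraries 3, 6, 9 and 12. It was called in 3 of 12 fits that left out 1 library, at 0.66 to 1.77.

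CSF1 and IL15 were called lower in ΔLEO1 cells with TMM on the genes but not in the 12-library fit on the ERCC scale. CSF1, the macrophage growth factor, was at 68.5, 73.0 and 187 CPM in wild-type and 36.0, 42.0 and 31.4 in ΔLEO1 cells at 10% serum, and at 97.1, 105 and 105 in wild-type and 55.2, 51.8 and 36.6 in ΔLEO1 cells at 0.1% serum. The groups did not overlap at either serum level. On the ERCC scale the genotype difference was -1.08 ± 0.48 (adjusted p = 0.203) at 10% and -0.92 ± 0.48 (adjusted p = 0.405) at 0.1% serum, and with TMM on the genes -1.60 (adjusted p = 0.00283) and -1.07 (adjusted p = 0.0283). Fits to fewer libraries on the ERCC scale called it too, at -1.07 (adjusted p = 0.0385) at 10% serum in the 6 libraries compared and at -1.28 (adjusted p = 0.0177) at 0.1% serum without libraries 3, 6, 9 and 12. IL15, a growth factor of natural killer cells, was at 4.44, 4.39 and 3.44 CPM in wild-type and 2.66, 2.16 and 1.82 in ΔLEO1 cells at 10% serum. For IL15 the genotypes did not overlap there in CPM but did on the ERCC scale. Its genotype difference at 10% serum was -0.55 ± 0.54 (adjusted p = 0.647) on the ERCC scale and -0.90 (adjusted p = 0.0018) with TMM on the genes. At 0.1% serum it was -0.82 ± 0.54 (adjusted p = 0.65) on the ERCC scale, -1.06 (adjusted p = 8.92e-04) with TMM on the genes and -1.66 (adjusted p = 0.00178) without libraries 3, 6, 9 and 12.

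CXCL12 rose in low serum in both genotypes and was lower in ΔLEO1 cells at both serum levels. CXCL12 (chr10:44370165-44386493, minus strand), which retains CXCR4-bearing cells in bone marrow and other tissues, was at 98.8, 99.9 and 41.5 CPM in wild-type cells at 10% serum and at 475, 526 and 503 at 0.1% serum. In ΔLEO1 cells it was at 24.1, 21.2 and 11.6 CPM at 10% and 128, 114 and 74.8 at 0.1% serum. In CPM every library at 0.1% serum lay above every library of its genotype at 10% serum. Every ΔLEO1 library also lay below every wild-type library at the same serum level in CPM. On the ERCC scale the serum groups overlapped in ΔLEO1 cells, and the genotypes overlapped at 10% serum. The change with serum was 1.49 ± 0.48 (adjusted p = 0.0154) in wild-type and 1.18 ± 0.48 (adjusted p = 0.0435) in ΔLEO1 cells on the ERCC scale, which is 2.46 and 2.22 above the median of all genes, and 2.56 (adjusted p = 3.43e-04) and 2.43 (adjusted p = 6.32e-04) with TMM on the genes. On the ERCC scale these calls were lost without library 2, 3, 7 or 8 in wild-type cells, at 1.08 to 1.84 with 1 library left out, and without library 1, 2, 4, 5, 6, 7, 8 or 10 in ΔLEO1 cells, at 0.84 to 1.60. The genotype difference was -1.78 ± 0.49 (adjusted p = 0.00457) at 10% and -2.10 ± 0.49 (adjusted p = 5.42e-04) at 0.1% serum, and -2.20 (adjusted p = 6.74e-04) at 10% serum without library 3. The first of these was lost without library 1, 2, 5 or 6, at -2.21 to -1.41 with 1 library left out, and the second held in all 12 such fits.

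CXCL16 was lower in ΔLEO1 cells at both serum levels, with little spread in CPM between libraries of a group. CXCL16 (chr17:4733526-4739922, minus strand), a chemokine made as a membrane-bound protein that also takes up oxidized lipoprotein, was at 16.7, 17.6 and 17.3 CPM in wild-type cells at 10% serum and at 2.63, 2.60 and 2.66 in ΔLEO1 cells. At 0.1% serum it was at 30.9, 31.1 and 34.5 CPM in wild-type and 10.1, 9.35 and 8.10 in ΔLEO1 cells. In CPM the 4 groups did not overlap, in the order ΔLEO1 at 10%, ΔLEO1 at 0.1%, wild type at 10% and wild type at 0.1% serum. On the ERCC scale the serum levels overlapped within each genotype, while the genotypes did not overlap at either serum level. The genotype difference was -2.37 ± 0.53 (adjusted p = 2.30e-04) at 10% and -1.58 ± 0.51 (adjusted p = 0.0337) at 0.1% serum, the first of which passed with any single library left out, at -2.57 to -2.18, and the second in 3 of 12 such fits, at -1.92 to -1.28. With TMM on the genes they were -2.72 (adjusted p = 5.55e-08) and -1.79 (adjusted p = 9.29e-07). With low serum it was not called on the ERCC scale, at -0.16 ± 0.50 (adjusted p = 0.771) and 0.63 ± 0.51 (adjusted p = 0.262) in wild-type and ΔLEO1 cells, but was higher with TMM on the genes at 0.82 (adjusted p = 3.25e-04) and 1.75 (adjusted p = 6.50e-06). On that scale the serum response in ΔLEO1 cells exceeded that in wild-type cells by 0.93 (adjusted p = 0.0163).

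CCL5 was higher in ΔLEO1 cells at both serum levels and had the largest positive genotype difference of the tested members at 10% serum. It was above 1 CPM only in ΔLEO1 libraries, and so was tested because of the cells in which it was high. CCL5 (chr17:35871491-35880793, minus strand), a chemokine for T cells and monocytes, had 3, 8 and 12 counts in wild-type cells at 10% serum and 10, 10 and 3 at 0.1% serum, against 141, 227 and 134 at 10% and 58, 72 and 40 at 0.1% serum in ΔLEO1 cells. All ΔLEO1 libraries lay above all wild-type libraries. The genotype difference was 4.74 ± 0.66 (adjusted p = 7.76e-11) at 10% and 2.75 ± 0.64 (adjusted p = 4.61e-04) at 0.1% serum, and 4.25 (adjusted p = 2.40e-05) and 2.75 (adjusted p = 0.00102) with TMM on the genes. Without library 3 the 10% serum value was 4.90 (adjusted p = 2.62e-08). Within ΔLEO1 cells the log2 fold change of CCL5 with low serum was -2.53 ± 0.57 (adjusted p = 4.83e-04), and -1.27 (adjusted p = 0.0219) with TMM on the genes. Of its 58-base stretches 10.3% occur in transcripts of other genes. The leukocyte marker PTPRC (CD45) was also higher in ΔLEO1 cells, at 0.274, 0.408 and 0.204 CPM in wild-type cells at 10% serum and 0.267, 0.419 and 0.627 at 0.1% serum, against 5.95, 5.94 and 1.37 at 10% and 7.10, 6.92 and 5.64 at 0.1% serum in ΔLEO1 cells. The summed level of 8 leukocyte markers was 1.15 to 2.21 CPM in wild-type and 3.22 to 9.13 CPM in ΔLEO1 libraries. Of these markers CD14, of monocytes, was at 1.43, 0.74 and 0.791 CPM in wild-type and 1.29, 1.02 and 1.28 in ΔLEO1 cells at 10% serum, while CD3E, LYZ, ITGAM and HLA-DRA had 3 counts or fewer in every library. KRT18, a keratin of simple epithelia, was also higher in ΔLEO1 cells, by 1.95 ± 0.47 (adjusted p = 8.15e-04) at 10% and 2.67 ± 0.48 (adjusted p = 1.84e-06) at 0.1% serum. The summed level of 8 endothelial and epithelial markers was 96.9 to 399 CPM in wild-type and 470 to 1115 CPM in ΔLEO1 libraries, with CDH5 at 3 counts or fewer in each. These markers did not all go the same way. At 0.1% serum CDH1 was higher in ΔLEO1 cells, at 9 to 19 counts against 0 to 2. EPCAM was lower there, at 1 to 3 counts against 4 to 6. KRT5 had 3 counts or fewer in both genotypes at 10% serum. The part of the cells that carry these markers in the result was not tested.

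CXCL14 rose with low serum in ΔLEO1 cells and had the largest genotype difference of the tested members at 0.1% serum. It was above 1 CPM only in ΔLEO1 libraries, and so was tested because of the cells in which it was high. CXCL14, a chemokine made by fibroblasts and epithelia, was at 0.384, 0.689 and 0.204 CPM in wild-type and 1.16, 0.861 and 0.81 in ΔLEO1 cells at 10% serum, and at 0.505, 0.457 and 0.269 CPM in wild-type and 9.66, 8.91 and 2.35 in ΔLEO1 cells at 0.1% serum. The 3 ΔLEO1 libraries at 0.1% serum lay above all 9 others, with library 12 well below libraries 10 and 11. The genotype difference at 0.1% serum was 4.04 ± 0.63 (adjusted p = 1.23e-08), and 4.12 (adjusted p = 2.38e-04) with TMM on the genes. At 10% serum it was 1.46 ± 0.59 (adjusted p = 0.132). With low serum CXCL14 changed by 1.44 ± 0.56 (adjusted p = 0.0385) in ΔLEO1 cells and by -1.14 ± 0.62 (adjusted p = 0.121) in wild-type cells, where it was -1.61 (adjusted p = 0.0377) without library 3. The call in ΔLEO1 cells was lost without library 2, 4, 5, 6, 7 or 10, and the value was 2.85 (adjusted p = 0.00201) with TMM on the genes. The difference between these responses was 2.58 ± 0.84 (adjusted p = 0.448), or 2.73 (adjusted p = 0.0241) without libraries 3, 6, 9 and 12.

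CX3CL1 and the monocyte chemokines had few counts or wide spread. CX3CL1, a chemokine tethered to the membrane by a mucin stalk, had 1, 0 and 0 counts in wild-type cells at 10% serum and 19, 17 and 15 at 0.1% serum, and 3, 4 and 1 at 10% and 28, 22 and 34 at 0.1% serum in ΔLEO1 cells. Every library at 0.1% serum lay above every library at 10% serum. It was at least 3.46-fold higher at 0.1% serum in wild-type cells on the ERCC scale, and with no expression filter its log2 fold change was 2.60 (adjusted p = 0.0175) in ΔLEO1 cells. CCL2 passed no threshold, at -0.91 ± 0.48 (adjusted p = 0.113) with low serum in wild-type cells, but without libraries 3, 6, 9 and 12 its sign turned and it was called higher at 1.06 (adjusted p = 0.0205). CCL7, a neighbour of CCL2 on chromosome 17, had 1, 3 and 11 counts in wild-type cells at 10% serum and 29, 32 and 8 at 0.1% serum, and 2, 0 and 0 at 10% and 15, 10 and 0 at 0.1% serum in ΔLEO1 cells. CCL8, IL33, TSLP and VCAM1 had at most 8 counts in any library, and CCL20 had none, which allows up to 3 counts in each (counting error only). CSF3 was at least 26.6-fold lower at 0.1% than at 10% serum in wild-type cells, or at least 3.57-fold without libraries 3 and 9.

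**Figure D4:**
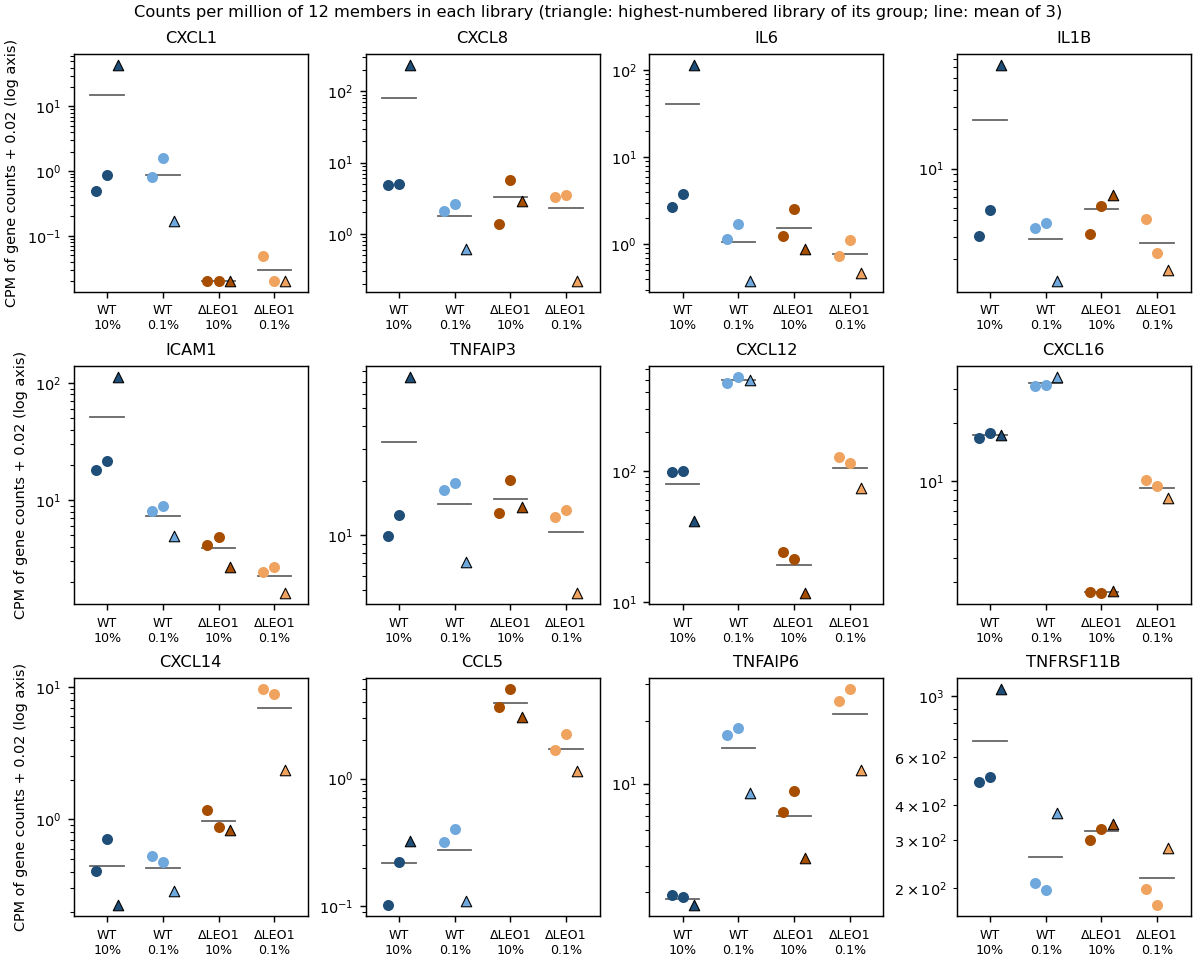
CPM of gene counts (log axis, with 0.02 added) of 12 members in every library (circles, and triangles for the highest-numbered library of each group; line, mean of 3 libraries). In the first 6 panels library 3 lies far above libraries 1 and 2, whereas CXCL12, CXCL16, CXCL14 and CCL5 separate the genotypes in most or all libraries.

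ICAM1 was lower in ΔLEO1 cells and in low serum. ICAM1 (chr19:10270835-10286615, plus strand), the adhesion molecule that leukocyte integrins bind, was at 18.2, 21.8 and 113 CPM in wild-type cells at 10% serum and at 8.08, 8.96 and 4.93 at 0.1% serum. In ΔLEO1 cells it was at 4.10, 4.81 and 2.68 at 10% and 2.42, 2.64 and 1.59 at 0.1% serum. The 4 groups did not overlap in CPM, although the ΔLEO1 libraries at 10% serum ended just above those at 0.1% serum, and library 3 lay far above the rest. The genotype difference was -3.06 ± 0.54 (adjusted p = 5.71e-07) at 10% serum, -2.21 (adjusted p = 0.00183) without library 3, and -1.66 ± 0.52 (adjusted p = 0.024) at 0.1% serum. The call at 0.1% serum was lost without library 5, 7, 8 or 10, and with TMM on the genes the values were -3.74 (adjusted p = 7.43e-04) and -1.70 (adjusted p = 0.0645). The change with low serum was -3.50 ± 0.55 (adjusted p = 2.25e-08) in wild-type cells, -2.65 (adjusted p = 9.16e-05) without library 3, and -2.10 ± 0.53 (adjusted p = 0.00216) in ΔLEO1 cells, which was -0.86 (adjusted p = 0.35) with TMM on the genes. Of its exon bases 23.6% are shared with genes on the opposite strand.

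The NF-κB subunits and the genes that restrain NF-κB were expressed in every library. NFKB1, which encodes p105 and p50, was at 60.6, 68.5 and 150.4 CPM in wild-type cells at 10% serum, with a mean of 53.1 (standard deviation 4.43 between libraries) in ΔLEO1 cells, and passed no threshold in the 12-library fit. Without libraries 3, 6, 9 and 12 it was called lower with low serum in ΔLEO1 cells at -1.28 (adjusted p = 0.0024), as were 92.0% of all genes. NFKB2, which encodes p100 and p52, was at 46.3, 48.5 and 152 CPM in wild-type and 36.6, 44.5 and 36.4 in ΔLEO1 cells. Its log2 fold change with low serum was -1.37 ± 0.49 (adjusted p = 0.0279) in wild-type and -1.26 ± 0.49 (adjusted p = 0.0369) in ΔLEO1 cells on the ERCC scale. Without library 3 the wild-type value was -0.97 (adjusted p = 0.0944), and the calls were made in 7 of 12 and 6 of 12 fits that left out 1 library. TMM on the genes gave -0.64 (adjusted p = 0.24) and -0.05 (adjusted p = 0.94) for NFKB2. RELB, the partner of p52, changed with low serum by -1.23 ± 0.49 (adjusted p = 0.0415) in ΔLEO1 cells, where TMM on the genes gave 0.13 (adjusted p = 0.877) and 6 of 12 fits that left out 1 library made the call. Minus the median of all genes, the serum values of NFKB2 were -0.40 and -0.22 and that of RELB in ΔLEO1 cells -0.18.

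NFKBIA and NFKBIZ, which encode inhibitory κB proteins, passed no threshold in the 12-library fit. Without libraries 3, 6, 9 and 12 NFKBIA was called lower with low serum in ΔLEO1 cells at -0.99 (adjusted p = 0.0172) and NFKBIZ at -0.83 (adjusted p = 0.0437), and NFKBIZ was lower in ΔLEO1 than wild-type cells at 0.1% serum at -1.41 (adjusted p = 0.00696). NFKBIA was at 33.5, 35.4 and 135 CPM in wild-type cells at 10% serum, with library 3 above all others, and at 68.3, 79.4 and 51.2 at 0.1% serum. TNFAIP3, which encodes the ubiquitin-editing enzyme A20, was at 9.93, 12.9 and 74.2 CPM in wild-type cells at 10% serum and 17.8, 19.3 and 7.14 at 0.1% serum, and at 13.2, 20.1 and 14.3 at 10% and 12.6, 13.7 and 4.79 at 0.1% serum in ΔLEO1 cells. Its change with low serum was -1.78 ± 0.51 (adjusted p = 0.00587) in wild-type cells, lost without library 3, 7 or 9 and -0.79 (adjusted p = 0.176) without library 3, and -1.98 ± 0.51 (adjusted p = 0.00296) in ΔLEO1 cells. TMM on the genes gave -1.23 (adjusted p = 0.195) and -0.66 (adjusted p = 0.505). BIRC3, a ubiquitin ligase of TNF receptor signalling, was at 5.76, 5.90 and 18.5 CPM in wild-type cells at 10% serum and 5.58, 4.50 and 4.09 at 0.1% serum. Its log2 fold change was -1.95 ± 0.54 (adjusted p = 0.00422) in wild-type and -2.37 ± 0.55 (adjusted p = 6.56e-04) in ΔLEO1 cells, and -1.56 (adjusted p = 0.0225) in wild-type cells without library 3, while TMM on the genes gave -1.18 (adjusted p = 0.0675) and -1.22 (adjusted p = 0.0706).

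TNFAIP6 was higher in ΔLEO1 cells at 10% serum and higher in low serum in wild-type cells, and both calls were lost without library 3. TNFAIP6, a secreted hyaluronan-binding protein induced by tumour necrosis factor, was at 2.88, 2.83 and 2.58 CPM in wild-type and 7.27, 9.16 and 4.34 in ΔLEO1 cells at 10% serum, and at 17.2, 18.4 and 9.02 in wild-type and 24.9, 28.5 and 11.6 in ΔLEO1 cells at 0.1% serum. In CPM libraries 9 and 12 were again the lowest of their groups. The genotypes did not overlap at 10% serum, nor did the serum levels in wild-type cells in CPM. On the ERCC scale the serum levels in wild-type cells overlapped. The genotype difference at 10% serum was 1.67 ± 0.53 (adjusted p = 0.0229) and the change with low serum in wild-type cells 1.42 ± 0.53 (adjusted p = 0.0333). With TMM on the genes the rise with low serum was 2.34 (adjusted p = 0.00109) in wild-type and 1.60 (adjusted p = 0.00806) in ΔLEO1 cells. Without library 3 the ERCC values were 1.43 (adjusted p = 0.164) and 1.18 (adjusted p = 0.0723), and the calls were made in 8 of 12 and 6 of 12 fits that left out 1 library.

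All 3 receptors were well expressed in these fibroblasts. TNFRSF11B, the decoy receptor osteoprotegerin, was at 487, 509 and 1059.6 CPM in wild-type cells at 10% serum and at 209, 197 and 375 at 0.1% serum, and at 299, 329 and 343 at 10% and 199, 174 and 279.6 at 0.1% serum in ΔLEO1 cells. It was lower in low serum in both genotypes, at -2.40 ± 0.48 (adjusted p = 3.23e-05) in wild-type and -1.57 ± 0.47 (adjusted p = 0.0113) in ΔLEO1 cells, and the wild-type value was -2.27 (adjusted p = 2.29e-04) without library 3. In ΔLEO1 cells leaving out 1 library at a time gave -2.37 to -1.18, with the call lost without library 4, 10 or 11, and TMM on the genes gave -0.64 (adjusted p = 0.156). The signalling receptor IL1R1 was at 91.3, 91.8 and 76.9 CPM in wild-type and 34.1, 31.9 and 20.4 in ΔLEO1 cells at 10% serum. The genotypes did not overlap there in CPM but did on the ERCC scale. Its genotype difference was -1.24 ± 0.48 (adjusted p = 0.107) on the ERCC scale and -1.60 (adjusted p = 0.00107) with TMM on the genes, and at 0.1% serum -1.25 ± 0.48 (adjusted p = 0.12) and -1.27 (adjusted p = 0.00546). IL6ST, the gp130 receptor shared by the interleukin-6 family, was at 684, 674 and 649.8 CPM in wild-type and 555, 591 and 463 in ΔLEO1 cells at 10% serum, and passed no threshold in the 12-library fit on the ERCC scale. With low serum in ΔLEO1 cells IL6ST was -1.31 (adjusted p = 0.00329) without libraries 3, 6, 9 and 12 and 0.43 (adjusted p = 0.0238) with TMM on the genes, in opposite directions.

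Per kilobase of exon on the ERCC scale, the order of mean levels was led by TNFRSF11B and IL6ST in all 4 groups, with 22226 and 7254 ERCC-scaled counts per kilobase in wild-type cells at 10% serum. CXCL8 ranked 3 there at 2567, a mean that library 3 carries, and stood at 172 in ΔLEO1 cells. CXCL12 ranked 3 in wild-type cells at 0.1% serum at 3987, and IL11 ranked 3 in ΔLEO1 cells at 0.1% serum at 1304. At the low end of the tested members in wild-type cells at 10% serum stood CCL5 at 11.7 and CXCL14 at 22.8. Neighbours in this order often overlap in their libraries, and no test of order was made.

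The interaction, the log2 response to low serum in ΔLEO1 cells minus that in wild-type cells, was called for 2 of 26 members. Both were positive, against 0.113% of all genes, and 0 members were negative by the quasi-likelihood test, against 0.0604%, with 1 negative at an unadjusted p under 0.05. CXCL8 gave 4.02 ± 0.74 (adjusted p = 1.68e-04) and IL6 3.38 ± 0.78 (adjusted p = 0.0115), the first called in 11 of 12 and the second in 6 of 12 fits that left out 1 library. Without library 3 they were 0.65 (adjusted p = 1) and 0.40 (adjusted p = 1), and no member passed in either direction, against 0.0227% negative and 0.114% positive of all genes, with 1 negative and 1 positive at an unadjusted p under 0.05. With TMM on the genes 1 member was called (CXCL16), positive, against 1.55%, and 0 negative, against 0.453%. DESeq2 with ERCC size factors called 0, with 1 member in each direction at an unadjusted p under 0.05. It gave no p-value, adjusted or not, for CXCL8 or IL6. Without libraries 3, 6, 9 and 12 CXCL14 passed at 2.73 (adjusted p = 0.0241), against 0.108% positive, and CCL5 at -3.03 (adjusted p = 0.044), against 0.349% negative. In that fit the response of CCL5 was 0.11 in wild-type and -2.92 in ΔLEO1 cells.

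Other genes of these pathways were counted over whole lists, and those given with values are among the called genes with the largest changes. Of 42 genes of NF-κB signalling 39 were tested, and 11 fell in low serum in wild-type and 16 in ΔLEO1 cells, against 27.0% and 36.4% of all genes, while 0 rose in the quasi-likelihood test, at an unadjusted p under 0.05 and in DESeq2. The medians were -1.06 and -1.11, beside -0.97 and -1.05 for all genes. TMM on the genes gave 5 lower and 3 higher in wild-type cells, against 16.1% and 15.5% of all genes. In ΔLEO1 cells it gave 3 lower and 4 higher, against 12.1% and 15.5%. TLR4, the receptor for bacterial lipopolysaccharide, fell in both genotypes, with log2 fold changes on the ERCC scale of -1.66 ± 0.50 (adjusted p = 0.00925) in wild-type and -1.84 ± 0.50 (adjusted p = 0.00501) in ΔLEO1 cells. Between genotypes 1 gene of that list was called on the ERCC scale at each serum level, TNFRSF1B, a receptor of tumour necrosis factor, and with TMM on the genes 10 were lower and 3 higher at 10% serum, against 21.4% and 17.9% of all genes. TNFRSF1B had 26, 30 and 28 counts in wild-type cells at 10% serum and 61, 51 and 64 at 0.1% serum, against 1, 0 and 1 at 10% and 0, 0 and 0 at 0.1% serum in ΔLEO1 cells, so it was at least 8.13-fold lower at 10% and at least 18.2-fold lower at 0.1% serum on the ERCC scale. Of 35 cytokine receptors 18 were tested, with 8 lower in low serum in wild-type and 4 in ΔLEO1 cells on the ERCC scale, against 27.0% and 36.4% of all genes, so that the share in ΔLEO1 cells lay below that of all genes, and 0 higher there, at an unadjusted p under 0.05 and in DESeq2. TMM on the genes called 5 lower and 4 higher in wild-type cells, against 16.1% and 15.5% of all genes. In ΔLEO1 cells it called 1 lower and 3 higher, against 12.1% and 15.5%. The log2 fold change of IL7R, the interleukin-7 receptor, with low serum was -3.92 ± 0.54 (adjusted p = 7.96e-11) in wild-type and -3.68 ± 0.53 (adjusted p = 1.58e-09) in ΔLEO1 cells. ACKR4, a receptor that scavenges chemokines, was at 80.7, 78.7 and 109 CPM in wild-type and 14.7, 17.4 and 24.6 in ΔLEO1 cells at 10% serum, a difference of -1.91 ± 0.50 (adjusted p = 0.00243), and differed by -2.56 ± 0.51 (adjusted p = 2.03e-05) at 0.1% serum. IL20RB, a subunit of receptors of the interleukin-10 family, was higher in ΔLEO1 cells by 1.61 ± 0.53 (adjusted p = 0.0352) at 10% and 2.16 ± 0.55 (adjusted p = 0.00221) at 0.1% serum.

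Other NF-κB targets found in the files numbered 39, of which 21 were tested, with 9 lower and 2 higher in low serum in wild-type cells, 11 and 3 in ΔLEO1 cells, 3 lower and 2 higher in ΔLEO1 cells at 10% serum, and 2 and 4 at 0.1% serum. The shares of all genes in these comparisons were 27.0% and 0.831%, 36.4% and 0.793%, 4.2% and 3.81%, and 3.41% and 3.49%. The counts with TMM on the genes were 6 lower and 4 higher, 3 and 6, 5 and 3, and 3 and 5. The shares of all genes with that scaling were 16.1% and 15.5%, 12.1% and 15.5%, 21.4% and 17.9%, and 17.3% and 15.1%. TNF, the cytokine that gave tumour necrosis factor signalling its name, had 1, 1 and 5 counts in wild-type cells at 10% serum and 0, 0 and 0 at 0.1% serum, against 55, 61 and 56 at 10% and 36, 48 and 18 at 0.1% serum in ΔLEO1 cells. It was at least 10.1-fold higher in ΔLEO1 cells at 0.1% serum and was higher by 4.90 ± 0.75 (adjusted p = 4.09e-09) at 10% serum. Like CCL5, TNF was thus higher in every ΔLEO1 library, while TNFRSF1B was lower in every one. CCL11, or eotaxin, had 1, 1 and 12 counts in wild-type cells at 10% serum and 117, 105 and 24 at 0.1% serum, and 0, 1 and 1 at 10% and 92, 75 and 10 at 0.1% serum in ΔLEO1 cells, so it was at least 8.65-fold higher in low serum in ΔLEO1 cells, with libraries 9 and 12 the lowest at 0.1% serum. CH25H, which makes 25-hydroxycholesterol, was at 0.384, 0.664 and 0.944 CPM in wild-type and 0.0516, 0.0441 and 0.045 in ΔLEO1 cells at 10% serum, and differed between genotypes by -3.28 ± 0.58 (adjusted p = 1.06e-06) at 0.1% serum. SERPINB2, an inhibitor of plasminogen activators, was higher in ΔLEO1 cells at 0.1% serum by 2.54 ± 0.55 (adjusted p = 1.16e-04). Of 10 regulators of mRNA decay, among them ZFP36, which destabilizes cytokine transcripts, 2 fell in low serum in wild-type and 3 in ΔLEO1 cells on the ERCC scale, against 27.0% and 36.4% of all genes. TMM on the genes called 1 lower and 4 higher in wild-type cells, against 16.1% and 15.5% of all genes. In ΔLEO1 cells it called 0 lower (1 at an unadjusted p under 0.05) and 3 higher, against 12.1% and 15.5%.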

How the data were processed

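RNA-seq counts of 12 libraries were used, as deposited. The authors demultiplexed with bcl2fastq 2.20.0.422, aligned paired reads to GRCh38 with the ERCC sequences using STAR (2.7.10a in the submitters' processing notes) and counted reads in exons with featureCounts 1.5.1, giving raw counts per Ensembl gene and per ERCC transcript. The annotation release and strand setting are not given in the sources used here. The kit was stranded, and 1 dilution of ERCC mix was added per sample.

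Genes above 1 CPM in at least 3 libraries (13236) were fitted in edgeR 4.0.16 (R 4.3.3, limma 3.58.1) as 4 groups over all 12 libraries. Library size was the ERCC total multiplied by its TMM factor, tests were two-sided quasi-likelihood F tests, and p-values were adjusted by Benjamini-Hochberg over all genes. The standard error is the log2 fold change divided by the root of F, and the 95% interval uses the normal quantile. Alternatives were the likelihood ratio test, DESeq2 1.42.0 with ERCC size factors, TMM on genes, no filter, the 6 libraries compared, and leaving out libraries. The fit was tested on simulated counts with the same spread for every gene and no outlying library, so that test does not cover a case such as library 3. Levels per kilobase used GENCODE exon lengths. Promoters were matched by symbol to RefSeq (29 of 39 members). Tables and plots used python 3.11.15, pandas 2.3.3, numpy 2.4.6, scipy 1.17.1 and matplotlib 3.10.9.

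The members and lists were chosen with earlier results of these data known. Any member could be named in the text, and from every other list the called genes with the 3 largest changes in each comparison, with LEO1 and markers as checks. Floors of 3 counts cover counting error only. Intervals of fold changes rest, like the p-values, on the spread between libraries as the fit estimates it. They do not cover differences between clones.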

Additional observations from a re-analysis of the deposited data

Results flagged for a closer look

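The response to low serum differed between the genotypes for 2 members in the edgeR quasi-likelihood test of the interaction. For CXCL8 the difference was 4.02 ± 0.74 (adjusted p = 1.68e-04), with responses of -1.98 in ΔLEO1 and -6.00 in wild-type cells. For IL6 it was 3.38 ± 0.78 (adjusted p = 0.0115), with responses of -2.36 and -5.74. Both rest on library 3, where CXCL8 had 9244 counts against 177 and 194 in libraries 1 and 2, and IL6 4517 against 97 and 149. Without library 3 the differences were 0.65 (adjusted p = 1) and 0.40 (adjusted p = 1), and without libraries 3, 6, 9 and 12 they were 0.47 (adjusted p = 0.582) and -0.50 (adjusted p = 0.582). Library 3 had the lowest share of mitochondrial counts of the 12 libraries, at 2.04% of a range up to 4.03%, and the part of sample quality in its values was not tested.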

How the results depend on the processing

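Of 41 member calls in edgeR's quasi-likelihood test, 17 were made in each of the 12 fits that left out 1 library. These include CCL5 in 3 comparisons and ICAM1 in 3, CXCL16 between genotypes at 10% serum, and CXCL12 and CXCL14 between genotypes at 0.1% serum. The same count over all genes is not given here, so it is not known whether the members differ from other genes in this. Low levels kept 13 members below the filter, and the part of depth was not tested. Signs of values that passed in neither fit were not compared, and the cause of each change was not tested.

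TMM on the genes called 5 lower and 5 higher members with low serum in wild-type cells, against 16.1% and 15.5% of all genes, and 1 and 8 in ΔLEO1 cells, against 12.1% and 15.5%. It called 5 lower between genotypes at 0.1% serum, against 17.3%, and 1 positive interaction, against 1.55%. It reversed CXCL16 (0.82), IL1R1 (0.82) and IL6ST (0.36) in wild-type cells and IL1R1 (1.15), IL6ST (0.43) and RELB (0.13) in ΔLEO1 cells. Without the highest-numbered library of each group, 18 lower and 1 higher members were called with low serum in ΔLEO1 cells, against 92.0% and 0.658% of all genes. Between genotypes at 0.1% serum 9 were lower, against 11.8%. In that fit CCL2 in wild-type serum (1.06), IL1B between genotypes at 10% serum (0.31) and the interaction of IL6 (-0.50) were reversed. With no filter 38 members were tested, of which 14 were lower with low serum in wild-type cells, against 7.72% of all genes, 1 was higher in ΔLEO1 cells, against 0.307%, and 10 were lower between genotypes at 10% serum, against 2.21%. Fits to the 6 libraries compared called 5 lower, against 4.13%, and 0 higher members, against 0.355%, with low serum in ΔLEO1 cells (2 higher at an unadjusted p under 0.05), and 1 lower between genotypes at 0.1% serum, against 2.39%. DESeq2 called 3 lower between genotypes at 10% serum, against 4.49%, and 0 interactions, with no p-value, adjusted or not, for 2 members, CXCL8 and IL6. It called 19 and 26 genes of the NF-κB signalling list lower with low serum in wild-type and ΔLEO1 cells, against 40.3% and 51.8% of all genes, where edgeR called 11 and 16, against 27.0% and 36.4%. The likelihood ratio test changed 1 member value.

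Leaving out 1 library gave 5 (without library 9) to 13 lower and 0 (without library 2, 3, 7 or 8) to 2 higher members with low serum in wild-type cells. In ΔLEO1 cells it gave 7 (without library 4 or 5) to 16 lower and 0 (without library 2, 4, 5, 6, 7 or 10) to 3 higher. Between genotypes it gave 3 (without library 3) to 8 lower and 1 (without library 2, 3, 4 or 5) to 3 higher at 10% serum, and 1 (without library 5, 7, 8 or 10) to 6 (without library 12) lower and 2 to 4 higher at 0.1% serum. Interactions ran from 0 (without library 3) to 3. Only IL1B between genotypes at 10% serum was reversed, at -2.03 to 0.40, by library 3. The share of all genes called also moves with the library left out. Without library 3 it was 46.4% lower with low serum in wild-type cells, against 27.0% with all libraries. Between genotypes at 10% serum it was 4.64% lower, against 4.2%. Shares for the fits without another single library are not given here, so these ranges are no result about the members.

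No paired analysis was possible because the libraries carry running numbers from 1 to 12 and the groups share none.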
